A study of Homo sapiens with 3 samples.

Results

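The kallikrein-related peptidases examined here were 8 genes, KLK5, KLK6, KLK7, KLK8, KLK10, KLK11, KLK12 and KLK13, found by symbol on exon arrays. They were chosen by a measured value, the intensity of KLK6, which stood far above both mammary lines in HT-29, so the values of HT-29 against either mammary line are given as a description. Of the 8 members, 7 had a transcript cluster (the probes that measure a gene as a whole) of their own. KLK8 was annotated on 2 clusters together with KLK9, and these are given apart because their signal cannot be assigned to either gene. Total RNA came from 3 human cell lines, with 1 array each. HT-29, a colon adenocarcinoma line, was grown in McCoy's 5A medium with 10% fetal bovine serum and had received interferon gamma (IFN-γ) at 200 U/ml for 24 h. MCF10A comes from mammary epithelium that does not form tumors and was grown in DMEM/F12 with horse serum at 5%, insulin at 10 µg/ml, cholera toxin at 100 ng/ml, hydrocortisone at 500 ng/ml and epidermal growth factor at 20 ng/ml. MDA-MB-436, a breast adenocarcinoma line, was grown in L-15 medium with 10% fetal bovine serum, and the labels name no treatment for the mammary lines. Untreated HT-29 was not analysed here, and line, medium and cytokine cannot be told apart in any value of HT-29. No line has a second array, so the differences carry no replicate error and were not tested.

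Kallikrein-related peptidases are secreted serine proteases made as inactive precursors, and most are switched on by trypsin-like cleavage, often by another kallikrein. In skin, KLK5 and KLK7 cut the proteins that hold the outermost cells together, and the inhibitor LEKTI, encoded by SPINK5, restrains them. Their genes lie side by side on chromosome 19, and steroid hormones regulate several of them. KLK6 and KLK10 are known in colon and ovarian tumors, and KLK10 was described as a gene of normal mammary epithelium that is low in many breast cancer lines.

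The promoter windows of the 5 members that were above background in at least 1 array are shown because these members formed different orders across the lines: KLK6, KLK10 and KLK11 were highest in HT-29, and KLK5 and KLK7 in MCF10A. Each window is a RefSeq sequence of GRCh38.p14, 250 bases before to 50 bases after the start site and 300 bases in all, printed 5′ to 3′ on the gene's strand. Where a gene had several windows, the one whose start site lay furthest upstream is printed. Capitals mark GGGCGG or its reverse complement CCGCCC, the letters of a GC box, which Sp1-type factors bind.
KLK6 (chr19:50969542-50969841, minus strand): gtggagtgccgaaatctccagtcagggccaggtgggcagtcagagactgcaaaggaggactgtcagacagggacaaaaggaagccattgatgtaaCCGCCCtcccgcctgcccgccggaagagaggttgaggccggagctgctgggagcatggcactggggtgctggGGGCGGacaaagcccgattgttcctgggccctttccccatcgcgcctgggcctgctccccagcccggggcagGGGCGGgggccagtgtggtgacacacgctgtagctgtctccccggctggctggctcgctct
KLK10 (chr19:51019812-51020111, minus strand): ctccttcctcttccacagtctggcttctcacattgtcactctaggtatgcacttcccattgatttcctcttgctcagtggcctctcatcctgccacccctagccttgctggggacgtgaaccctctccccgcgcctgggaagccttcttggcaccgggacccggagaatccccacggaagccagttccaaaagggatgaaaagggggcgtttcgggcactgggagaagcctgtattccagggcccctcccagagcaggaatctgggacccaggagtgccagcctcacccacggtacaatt
KLK11 (chr19:51027597-51027896, minus strand): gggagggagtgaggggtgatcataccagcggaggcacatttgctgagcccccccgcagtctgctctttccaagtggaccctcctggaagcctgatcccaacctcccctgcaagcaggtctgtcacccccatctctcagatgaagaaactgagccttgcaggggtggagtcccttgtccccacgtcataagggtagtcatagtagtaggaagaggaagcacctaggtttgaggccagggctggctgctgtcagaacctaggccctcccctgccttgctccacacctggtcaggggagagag
KLK5 (chr19:50952989-50953288, minus strand): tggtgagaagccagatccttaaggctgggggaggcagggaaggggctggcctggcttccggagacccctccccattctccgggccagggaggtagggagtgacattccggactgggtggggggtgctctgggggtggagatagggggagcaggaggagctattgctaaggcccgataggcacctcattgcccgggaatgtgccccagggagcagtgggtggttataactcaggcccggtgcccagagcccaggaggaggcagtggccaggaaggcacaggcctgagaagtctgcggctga
KLK7 (chr19:50984015-50984314, minus strand): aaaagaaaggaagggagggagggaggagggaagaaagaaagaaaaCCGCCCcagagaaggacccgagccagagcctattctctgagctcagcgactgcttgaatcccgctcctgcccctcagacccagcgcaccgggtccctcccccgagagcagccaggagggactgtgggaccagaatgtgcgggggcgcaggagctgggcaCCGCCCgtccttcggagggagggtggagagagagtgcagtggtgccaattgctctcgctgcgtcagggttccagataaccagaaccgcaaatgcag

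RefSeq windows were found for 7 of the 8 members, all but KLK8, and numbered 12 in all; those of KLK7, KLK10 and KLK13 overlap one another within the gene, so some bases count more than once. GGGCGG, read on both strands, was in 7 of the 12 windows, those of 4 of the 7 genes, and in 45% of 35116 windows of the same length across genes. In the printed KLK6 window it began at bases -155, -83 and -11 from the start site, and in the printed KLK7 window at -205 and -46. The printed windows of KLK5, KLK10 and KLK11 had no match, although a second KLK11 window, not printed, had 3. TATAAA, the letters of a TATA box, was in 0 of the 12 windows and in 11.5% of all windows. TGANTCA, the letters of AP-1 sites, and AGAACA, the core of glucocorticoid and androgen receptor sites, were also in 0 of the 12 windows, against 7.71% and 14.8% of all windows. These counts cover only these letters in these windows. Among the members highest in HT-29, the printed window of KLK6 had GGGCGG matches and those of KLK10 and KLK11 did not. Among those highest in MCF10A, the printed window of KLK7 had them and that of KLK5 did not. The start site used in each line was not examined, and a part of these letters in the orders was not tested.

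Intensities are on a linear scale. Background was 29.9, below which lay 95% of the values of 235 olfactory receptor genes, a family active in the nose; their highest value was 101. The median over all clusters was 81.0 in MDA-MB-436, 75.1 in MCF10A and 75.9 in HT-29. The labels were set against marker genes: 8 of 9 colon epithelium markers were above background in HT-29, where MDA-MB-436 had 3 and MCF10A 2. Of 4 measured basal mammary markers, 4 were above it in MCF10A, 3 in HT-29 and 1 in MDA-MB-436, and of 5 mesenchymal markers 5 in MDA-MB-436, 3 in MCF10A and 0 in HT-29. The mesenchymal marker VIM did not separate the mammary lines, at 2038 in MDA-MB-436 and 1933 in MCF10A. In MDA-MB-436 the epithelial adhesion gene EPCAM was at 34.9, against 2107 in HT-29 and 359.7 in MCF10A. Of 3 measured leukocyte markers 1 was above background in each line, CD14, at 156 in MCF10A, 86.5 in MDA-MB-436 and 38.9 in HT-29, and of 4 fibroblast markers 1 or 2 were.

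KLK6 encodes a trypsin-like kallikrein, also called neurosin, that is abundant in the central nervous system. Its intensity was 16.0 in MDA-MB-436, 30.2 in MCF10A and 3182 in HT-29. HT-29 was thus high, MCF10A lay at the background level and MDA-MB-436 under it. The log2 difference was 6.72 from MCF10A, a measured fold of 105. Relative to MDA-MB-436 the HT-29 value was higher by at least 107-fold, computed against background. The size of these folds depends on the floor: against the olfactory receptor 99th percentile, 59.9, KLK6 was higher by at least 53.1-fold in HT-29 than in either mammary line, and against the highest olfactory receptor value at least 31.6-fold.

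KLK10 encodes a kallikrein for which little or no protease activity has been described. Its intensity was 57.6 in MDA-MB-436, 799.9 in MCF10A and 1897 in HT-29. HT-29 and MCF10A both lay well above the highest olfactory receptor value, and MDA-MB-436 was under it. KLK10 was therefore, unlike KLK6, bright in a mammary line. HT-29 was 2.37-fold higher than MCF10A and 33.0-fold higher than MDA-MB-436. Between the mammary lines, a comparison not used to choose the members, KLK10 was 13.9-fold lower in MDA-MB-436, with a log2 difference of -3.80.

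KLK11 encodes another trypsin-like kallikrein, also called hippostasin. Its intensity was 14.5 in MDA-MB-436, 33.0 in MCF10A and 187 in HT-29. Only the HT-29 value was above the highest olfactory receptor value, and MCF10A was close to background. HT-29 was 5.68-fold higher than MCF10A by measured intensity and at least 6.27-fold higher than MDA-MB-436. Against the olfactory receptor 99th percentile both folds were at least 3.12, under 4-fold. KLK11 was thus highest in HT-29, as were KLK6 and KLK10, at smaller and less certain folds than KLK6. Of all genes, 40.3% were highest in HT-29. Between the mammary lines the bound for MCF10A over MDA-MB-436 was only 1.10-fold for KLK11 and 1.01-fold for KLK6. An order of these 2 lines like that of KLK10, with its measured 13.9-fold, was therefore not resolved for KLK6 or KLK11.

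KLK5 and KLK7 are the pair that acts in shedding of the outer skin; KLK5 is trypsin-like and can activate KLK7, which is chymotrypsin-like. KLK7 was at 11.1 in MDA-MB-436, 142 in MCF10A and 18.8 in HT-29. It was above background in MCF10A alone of the 3 lines. There it was at least 4.77-fold higher than in HT-29 and than in MDA-MB-436, the same bound because both are set against background. Against the olfactory receptor 99th percentile the bound was 2.38-fold in both. KLK5 was at 52.6 in MDA-MB-436, 193 in MCF10A and 64.2 in HT-29. All 3 values were above background, but those of HT-29 and MDA-MB-436 were under the highest olfactory receptor value. KLK5 was 3.01-fold lower in HT-29 and 3.67-fold lower in MDA-MB-436 than in MCF10A, both short of 4-fold, and its values in HT-29 and MDA-MB-436 were 1.22-fold apart. KLK5 and KLK7 shared the order with MCF10A highest, which was not that of KLK6, the gene between them on the chromosome. Of 3 measured markers of differentiated keratinocytes, 1 was above background in MCF10A, 2 in HT-29 and 0 in MDA-MB-436, with summed intensities of 329.9, 79.1 and 64.2. Most of the MCF10A sum came from the keratin gene KRT10. It was at 278 in MCF10A, 34.8 in HT-29 and 28.8 in MDA-MB-436, thus highest in MCF10A, as were KLK5 and KLK7. The marker IVL was under background in MCF10A (26.6) and MDA-MB-436 (20.7) and close to it in HT-29 (31.2). Its order was therefore not resolved. KRT1 was under background in all lines. The part of KRT10 in the values of KLK5 and KLK7 was not tested.

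KLK8 encodes neuropsin, a trypsin-like kallikrein known in brain and skin. The first of its 2 clusters shared with KLK9 was at 60.1 in MDA-MB-436, 175 in MCF10A and 88.9 in HT-29. The second was at 35.0 in MDA-MB-436, 71.2 in MCF10A and 46.1 in HT-29. Both were highest in MCF10A and lowest in MDA-MB-436, and only the MCF10A value of the first cluster was above the highest olfactory receptor value. The log2 differences of MDA-MB-436 minus MCF10A were -1.54 and -1.03, and those of HT-29 minus MCF10A were -0.98 and -0.63, each under 4-fold in size.

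KLK12 and KLK13, both trypsin-like kallikreins, were under background on all 3 arrays. KLK12 was at 14.9 in MDA-MB-436, 14.5 in MCF10A and 23.9 in HT-29, and KLK13 at 9.80, 15.0 and 16.3 in the same order. No fold is given for them.

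**Figure D1:**
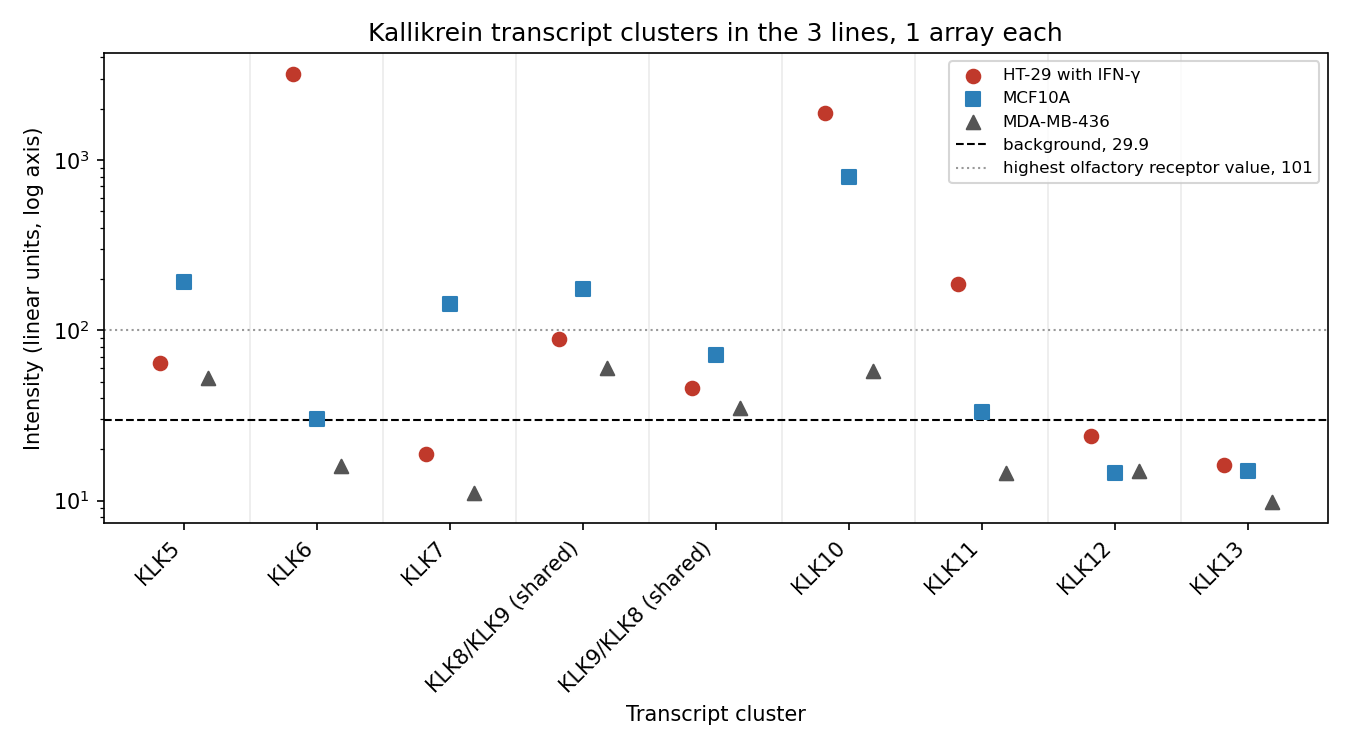
Intensity (log axis) of the 7 kallikrein members with a cluster of their own and of the 2 clusters shared by KLK8 and KLK9; each point is 1 array, the dashed line is the background of 29.9 and the dotted line the highest olfactory receptor value of 101. KLK6, KLK10 and KLK11 have their highest point in HT-29, KLK5, KLK7 and both shared clusters in MCF10A, and KLK12 and KLK13 lie under the dashed line in every line.

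As a group, the members had no common direction between HT-29 and MCF10A. A gene was counted when its measured intensities differed by at least 4-fold, a log2 difference of 2, and the higher one was above background. By this count 2 of 7 members, KLK6 and KLK11, were higher in HT-29, where 4.34% of all 14410 genes were counted, and 1, KLK7, was lower, where 3.5% of genes were. The median log2 difference of the 7 members was 0.72, against 0.11 for all genes, and it was 0 once values under background were set to background. These counts use the comparison by which KLK6 was chosen and describe the arrays.

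Between HT-29 and MDA-MB-436, 3 of 7 members, KLK6, KLK10 and KLK11, passed 4-fold with HT-29 as the higher line, with 4.21% of all genes so counted, and 0 were lower, with 4.69% of all genes. The median log2 difference was 0.77, against 0.076 for all genes, or 0.29 with values under background set to it. This comparison shares the HT-29 array with the one above and also bears on the choice of KLK6.

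Between the mammary lines, 2 of 7 members, KLK7 and KLK10, passed 4-fold with MDA-MB-436 as the lower line, with 2.01% of all genes so counted, and 0 were higher, with 3.66% of all genes. The median log2 difference was -1.19, against 0.018 for all genes, and -0.14 with values under background set to it. KLK5, at a log2 difference of -1.88, fell just short of the threshold. KLK6 and KLK11 had log2 differences of -0.91 and -1.19, but MCF10A was at or near background and MDA-MB-436 under it. Of the 7 members 6 had their lowest intensity in MDA-MB-436, as did 34.5% of all genes; the exception was KLK12, which was under background throughout. The 6 include KLK13, also under background in every line, and KLK7, under background in HT-29 (18.8) and MDA-MB-436 (11.1). They also include KLK5, whose values in HT-29 and MDA-MB-436 were 1.22-fold apart. With values under background set to it, only KLK10 was more than 4-fold lower in MDA-MB-436 than in each other line.

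**Figure D2:**
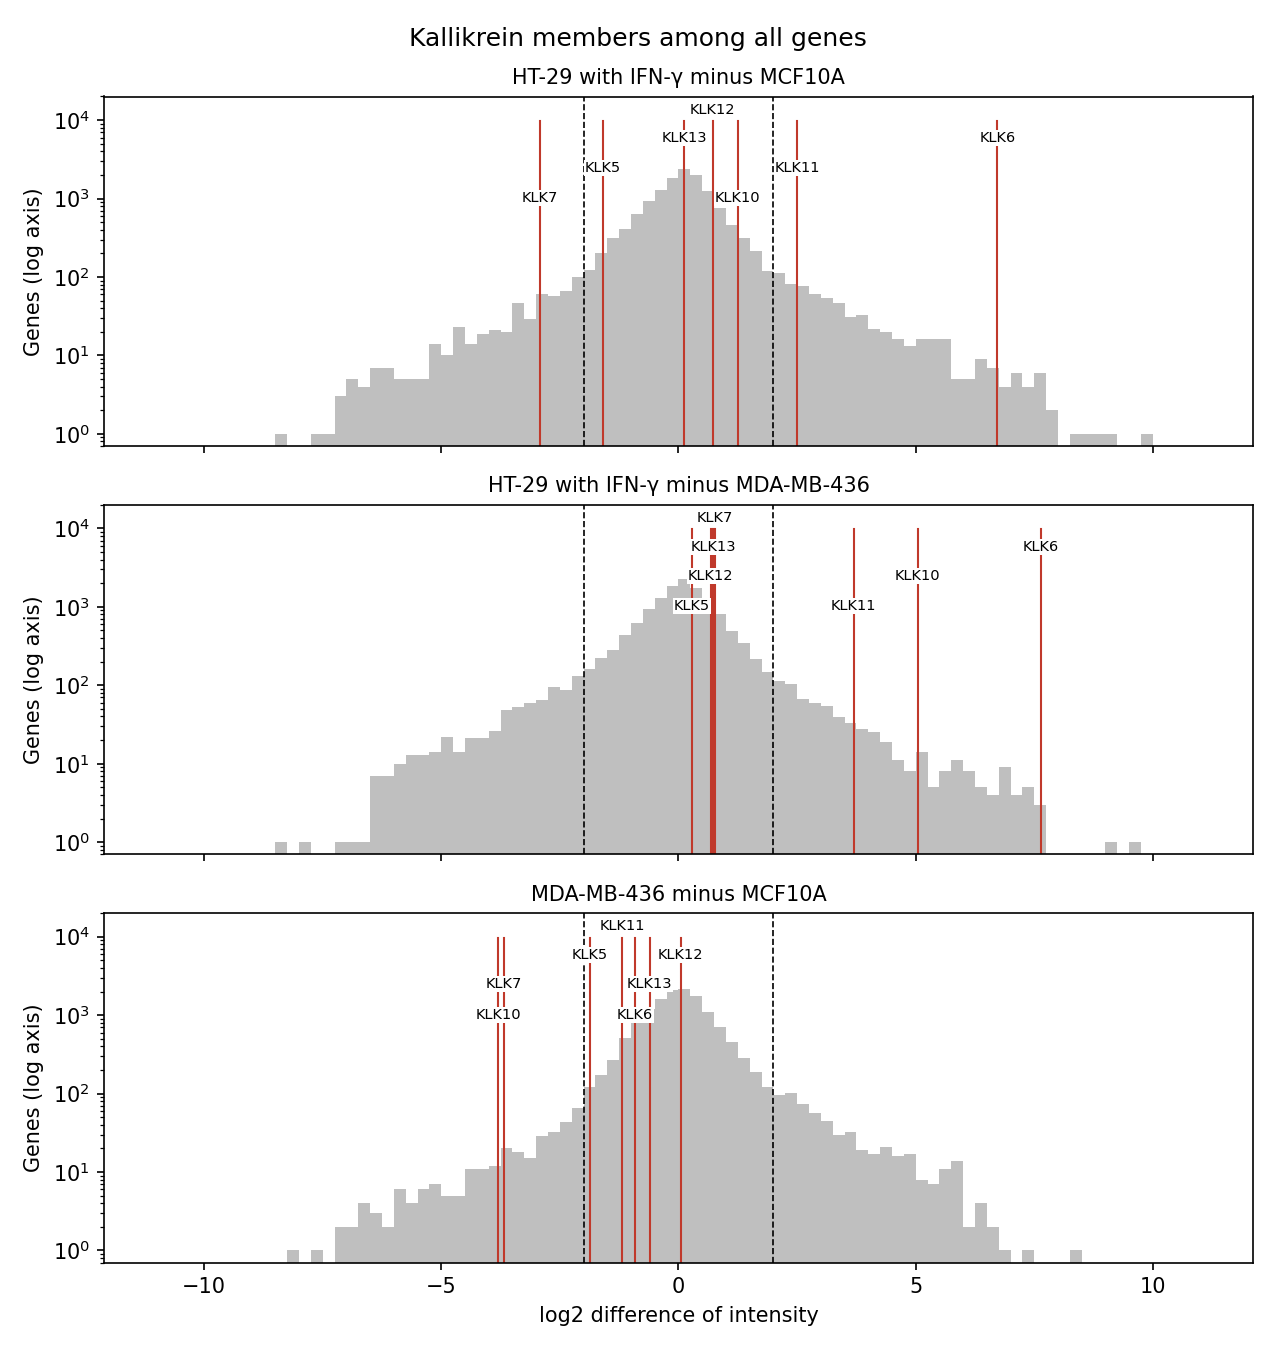
Histograms of the log2 difference of intensity over all 14410 genes (gene counts on a log axis) in the 3 comparisons, with a red line for each of the 7 kallikrein members and dashed lines at 4-fold. KLK6 lies at 6.72 and 7.64 in the comparisons with HT-29, and KLK7 and KLK10 lie at -3.69 and -3.80 in MDA-MB-436 minus MCF10A; differences can rest on values under background.

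The other kallikrein genes with a cluster of their own were dim. Of 7 further kallikrein genes, 5 had a cluster of their own, and 0 of them passed 4-fold in any of the 3 comparisons. Their median log2 differences were 0.19 for HT-29 minus MCF10A, 0.23 for HT-29 minus MDA-MB-436 and -0.011 for MDA-MB-436 minus MCF10A. KLK9 could not be judged, because its clusters are those shared with KLK8. KLK4 shared its cluster with the symbol KLKP1, and this was under background in all lines, at 25.9 to 29.1. KLK2 and KLK3, the prostate kallikreins, were under background in all lines, at 18.3 to 20.2 and 18.2 to 25.4, and so was KLK15 at 15.7 to 17.9. KLK1, the tissue kallikrein that releases kinins, was at 31.0 in MDA-MB-436, 45.5 in MCF10A and 61.5 in HT-29. KLK14 was at 29.8, 56.8 and 35.0 in the same order of lines. KLK1 and KLK14 stayed under the highest olfactory receptor value. In RefSeq gene order the members highest in HT-29 were not a single block. KLK6 lay between KLK5 and KLK7, which were highest in MCF10A, and KLK10 and KLK11 were adjacent. The nearest measured genes outside the locus were TMEM277P before KLK1, under background in all lines at 13.2 to 17.8, and CTU1, a tRNA modification gene, after KLK14, at 44.3 in MDA-MB-436, 107 in MCF10A and 83.6 in HT-29. ACP4 and GPR32 before the locus were at 27.4 to 33.1 and 11.3 to 14.7, and SIGLECL1 after it at 6.66 to 10.2. ETFB, also after it, was at 163 in MDA-MB-436, 286 in MCF10A and 284 in HT-29. None of these 6 genes had a 4-fold difference. TMEM277P, GPR32 and SIGLECL1, under background in all lines, and ACP4, close to it, could not show one. CTU1 and ETFB were lowest in MDA-MB-436, 2.41-fold and 1.75-fold under MCF10A.

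**Figure D3:**
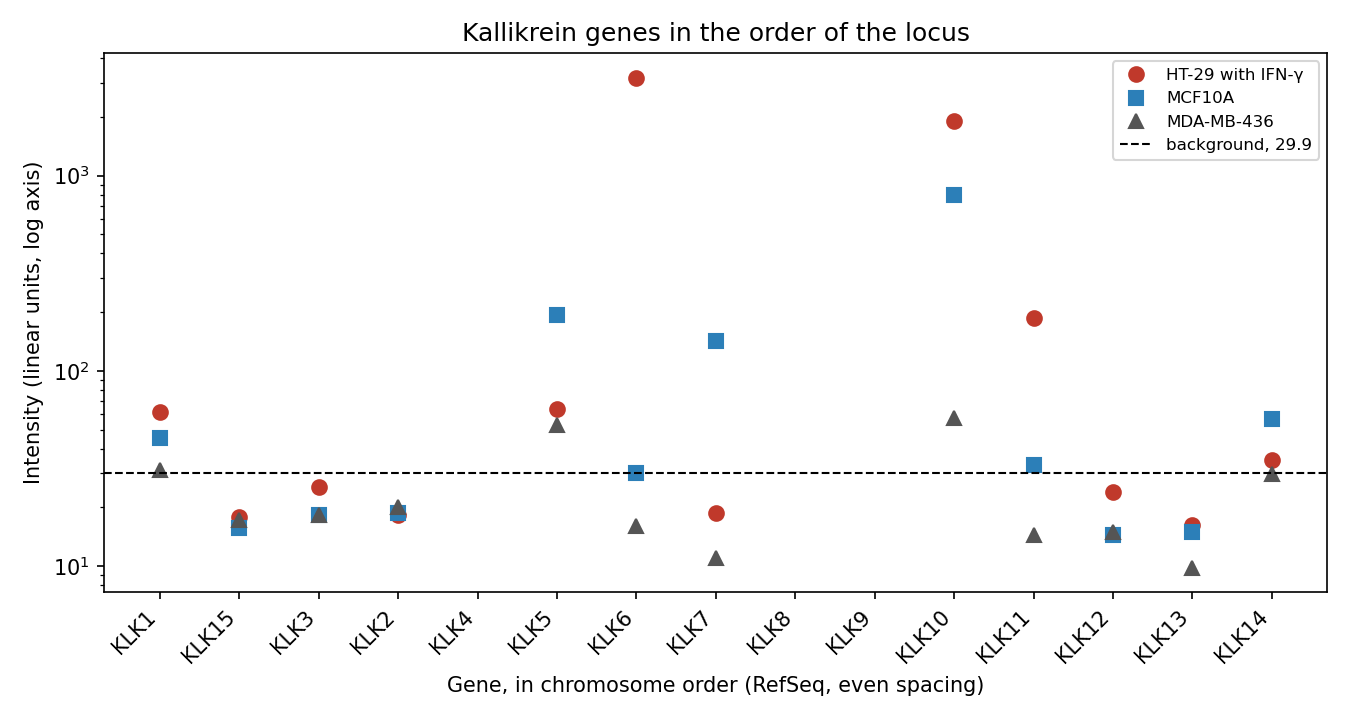
Intensity (log axis) of the kallikrein genes with a cluster of their own, in RefSeq chromosome order with even spacing; each point is 1 array, and KLK4, KLK8 and KLK9 are empty because their clusters carry several symbols. KLK6 in HT-29 (3182) stands between KLK5 and KLK7, which are highest in MCF10A (193 and 142).

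Protease inhibitors of epithelium or plasma, not all of them known to act on kallikreins, differed in both directions. Of 19 listed genes 14 were measured; SPINK5, the gene of LEKTI, had no cluster of its own. Between HT-29 and MCF10A 3 passed 4-fold by measured intensity on the higher side and 3 on the lower, or 3 and 2 with values under background set to it. SPINK1, the pancreatic trypsin inhibitor gene, was at 34.7 in MDA-MB-436, 6.53 in MCF10A and 553 in HT-29, so that HT-29 exceeded MCF10A by at least 18.5-fold. PI3, which encodes the elastase inhibitor elafin, was at 845 in MCF10A and 57.1 in HT-29, 14.8-fold lower in the latter. SERPINA3, the antichymotrypsin gene, was at 133 in HT-29, higher than in MCF10A by at least 4.44-fold. SPINK6, which encodes a kallikrein inhibitor of skin, was at 49.2 in MCF10A and under background in the other lines, a bound of only 1.65-fold. Between HT-29 and MDA-MB-436 4 inhibitors passed 4-fold on the higher side and 0 on the lower, and between MDA-MB-436 and MCF10A 1 was higher and 4 were lower. With the background as floor these counts were 4 and 0, and 0 and 3; the higher inhibitor lost is SPINK1, whose bound in MDA-MB-436 over MCF10A is 1.16-fold. Of all genes, 4.34% were higher and 3.5% lower in the first comparison, 4.21% and 4.69% in the second, and 3.66% and 2.01% in the third. The median log2 differences of the 14 inhibitors in these 3 comparisons were 0.40, 0.36 and -0.85, against 0.11, 0.076 and 0.018 for all genes, and 0, 0 and -0.23 with values under background set to it.

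SPINT1 and SPINT2 encode the membrane inhibitors HAI-1 and HAI-2. SPINT1 was at 39.6 in MDA-MB-436, 493 in MCF10A and 1297 in HT-29. This is the order of KLK10, and SPINT1 was 12.5-fold lower in MDA-MB-436 than in MCF10A. SPINT2 was at 21.7, 807 and 1229 in the same order of lines, and its MDA-MB-436 value was lower than that of MCF10A by at least 27.0-fold. WFDC2, a secreted protein with an inhibitor-type fold, was at 227 in HT-29, higher than in MDA-MB-436 by at least 7.59-fold.

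Of 25 listed serine proteases and relatives outside the locus 20 were measured. Between HT-29 and MCF10A 5 passed 4-fold by measured intensity on the higher side, against 4.34% of all genes, and 4 on the lower, against 3.5%. Set against MDA-MB-436, 5 were higher in HT-29 (4.21% of all genes) and 2 lower (4.69%), and between MDA-MB-436 and MCF10A 2 were higher (3.66%) and 5 lower (2.01%). With values under background set to it the counts were 4 and 4, 5 and 1, and 1 and 5 in that order. The medians were 0.31, 0.10 and -0.037 on the log2 scale, against 0.11, 0.076 and 0.018 for all genes, and 0 in all 3 with values under background set to it. ST14, which encodes matriptase, a membrane protease inhibited by HAI-1, was at 17.9 in MDA-MB-436, 663 in MCF10A and 1254 in HT-29. PRSS8, the gene of the membrane-anchored protease prostasin, was at 21.0, 152 and 1355 in the same order. Both had their lowest value in MDA-MB-436, under background. Against MCF10A, ST14 was lower by at least 22.2-fold and PRSS8 by at least 5.09-fold. TMPRSS4 and TMPRSS2, further membrane serine proteases, were at 723 and 144 in HT-29 and under background in both mammary lines. The secreted plasminogen activators were instead lowest in HT-29. PLAT was at 119 in MDA-MB-436, 552 in MCF10A and 24.3 in HT-29, and PLAU was at 1026, 179 and 29.5 in the same order. Between the mammary lines PLAT was 4.65-fold lower in MDA-MB-436, the direction of ST14 and PRSS8, whereas PLAU was higher there. HTRA1, a secreted protease gene, was 15.8-fold lower in HT-29 and 6.51-fold lower in MDA-MB-436 than in MCF10A. F3, which encodes tissue factor, a protease cofactor, was 9.88-fold lower in HT-29 and 9.49-fold lower in MDA-MB-436 than in MCF10A.

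Of 24 listed substrates, receptors and partners of kallikreins 21 were measured; ST14, PRSS8 and PLAU are also on the protease list. By measured intensity 2 passed 4-fold on the higher side and 3 on the lower in HT-29 set against MCF10A, 4 and 3 in HT-29 set against MDA-MB-436, and 2 and 4 in MDA-MB-436 set against MCF10A. With the background as floor the counts were 1 and 3, 3 and 3, and 2 and 4. The shares of all genes are those given with the proteases. The medians were 0.22, 0.15 and -0.11 on the log2 scale, against the same all-gene medians, and again 0 in all 3 with the background as floor. DSG3, a desmosomal cadherin, was at 1036 in MCF10A and under background in HT-29 and MDA-MB-436, at 13.2 and 9.83. It was thus bright in the same line as KLK5 and KLK7. DSG1 and CDSN, the skin substrates of these proteases, were under background in all lines, at 3.41 to 10.1 and 18.6 to 27.2. CDH1, the E-cadherin gene, was at 10.3 in MDA-MB-436, 716 in MCF10A and 1607 in HT-29. FN1, the fibronectin gene, was at 15.6 in HT-29, at least 13.4-fold lower than in MCF10A, and the neural adhesion gene L1CAM was at 473 in MDA-MB-436 and 47.8 in MCF10A, a fold of 9.90. MEP1B, a meprin subunit gene, was at 31.4 in HT-29 and under background in the mammary lines, a bound of only 1.05-fold. F2R, which encodes the protease-activated receptor PAR1, was at 198, 164 and 169 in HT-29, MCF10A and MDA-MB-436, and APP, the amyloid precursor gene, at 2376, 2618 and 2434, so neither differed by 4-fold.

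**Figure D4:**
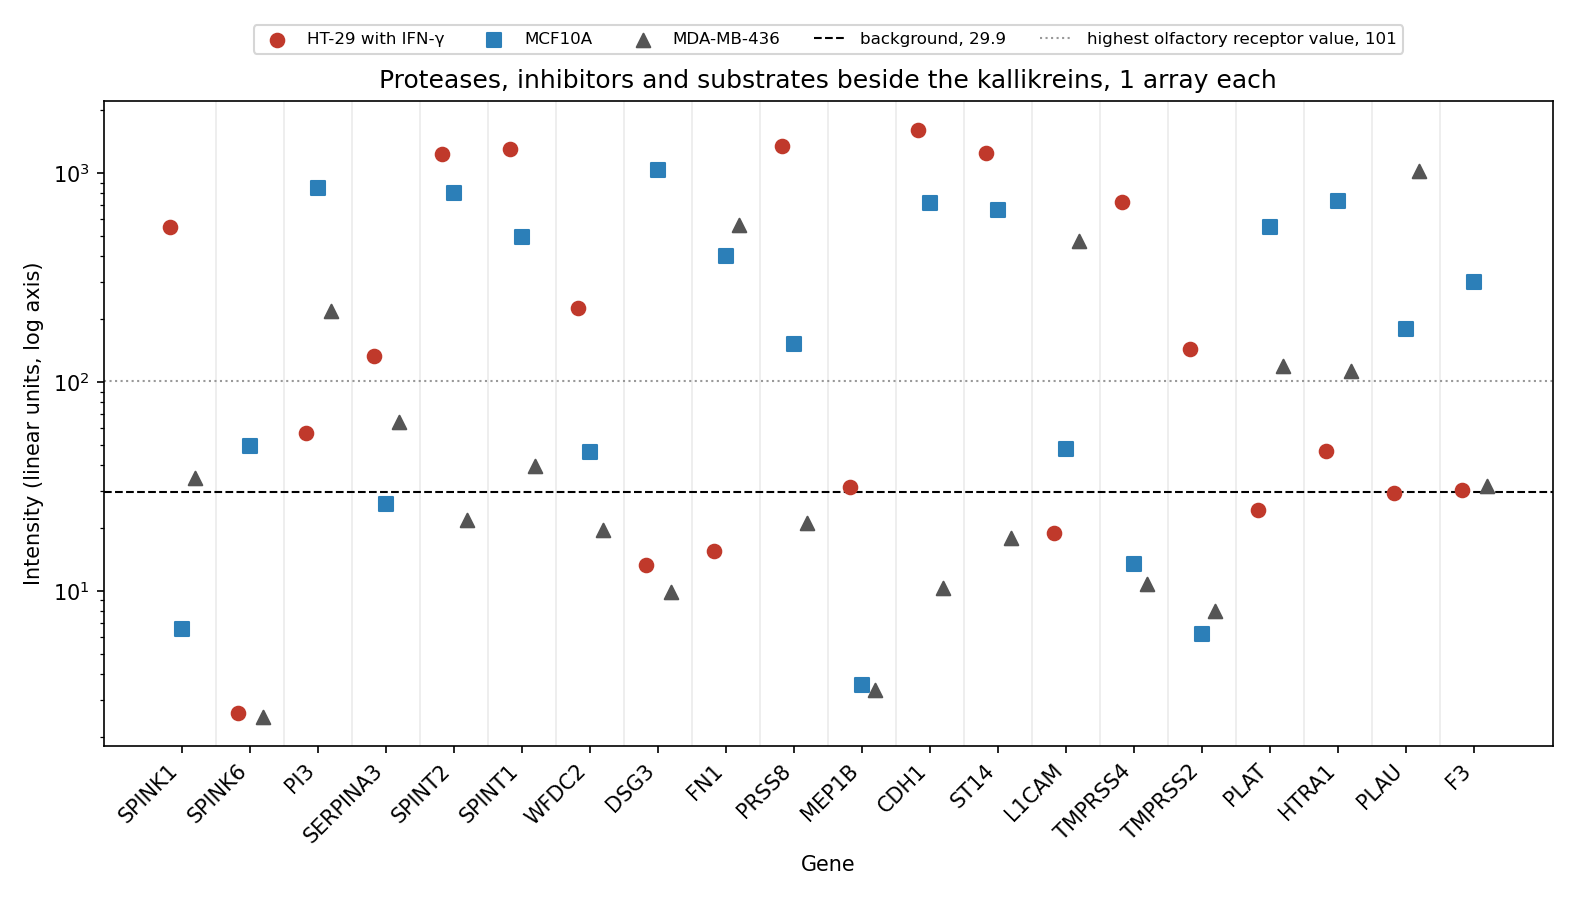
Intensity (log axis) in the 3 lines, 1 array each, of the inhibitors, substrates and proteases named by the largest differences past 4-fold in each list. SPINT1, SPINT2, ST14, PRSS8 and CDH1 have their highest point in HT-29 and their lowest in MDA-MB-436, whereas PLAU is highest in MDA-MB-436 at 1026.

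The genes most like each member were those whose log2 intensities, with values under background set to it and each gene centred on its mean over the 3 arrays, lay at the smallest Euclidean distance. With 3 arrays many genes can share a profile, so this only names neighbours. For KLK6 these were GPX2, a glutathione peroxidase gene, HLA-DPA1, a class II presentation gene, LGALS4, a galectin gene, LYZ, the lysozyme gene, ACSL5, a fatty acid activating enzyme gene, and SLC44A4, a membrane transporter gene, at distances of 0.016 to 0.44. GPX2 was at 3133, 15.2 and 16.3 in HT-29, MCF10A and MDA-MB-436, and HLA-DPA1 at 3072, 15.4 and 32.3. For KLK10 they were SPINT1, NEBL, ST14 and KIAA0040, at 0.13 to 0.54, so a protease and an inhibitor of the lists above were among the 4 nearest. For KLK7 they were PTPRM, ST6GAL1, SLPI and EDA2R, at 0.024 to 0.051, and SLPI, the secretory leukocyte protease inhibitor gene, was at 687 in MDA-MB-436, 3193 in MCF10A and 660 in HT-29. For KLK11 they were CDHR5, BSPRY, B4GALNT3 and TLR3, at 0.014 to 0.085. CDHR5, a cadherin of the brush border, was at 209, 37.3 and 33.6 in HT-29, MCF10A and MDA-MB-436.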

How the data were processed

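Total RNA of 3 lines was hybridised to exon arrays, 1 array each, per the labels' protocols. The authors deposited 1 linear intensity per transcript cluster for 18708 clusters; summary, background correction and normalization are not given in the sources used here, and the submitters' processing notes name the build hg19. The number of arrays limits the precision. Clusters were named from the platform annotation, updated by gene identifier against RefSeq (GRCh38.p14, names, gene order and promoter windows only): 14733 had 1 symbol, of which 14705 matched by identifier, 2875 carried several symbols and stayed unnamed, as did 1100 without an entry in the annotation used here. The brightest cluster of a gene was used. All 14410 genes entered every comparison, on log2 intensities as deposited. A fold with the dimmer array under background is a lower bound computed against background.

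The members, gene lists and rules were chosen with earlier results of these data known. Named were all members, up to 4 genes per list and comparison with the largest difference past 4-fold, the 6 genes most like KLK6 and 3 measured genes on each side of the locus. The 4 genes most like KLK7, KLK10 and KLK11, other kallikreins, and EPCAM, SLPI, DSG1, CDSN, CD14, VIM, KRT10, F2R and APP were chosen after values were seen. Alternatives were quantile normalization, median centring, other background filters, folds of 2 and 8, values under background set to it and the median over clusters; a floor at the olfactory receptor 99th percentile was chosen after seeing the data. The counting was tested on simulated data with 8-fold changes in genes far above background, which does not cover genes near it. The software was Python 3.11.15 with pandas 2.3.3, numpy 2.4.6 and matplotlib 3.10.9.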

Additional observations from a re-analysis of the deposited data

How the results depend on the processing

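No member's 4-fold call changed, in any of the 3 comparisons, under quantile normalization, median centring, no background filter, a stricter filter at the olfactory receptor 99th percentile, or values under background set to it. The median over a gene's clusters could change nothing for the members, which have 1 cluster each, and a filter on background acts on whether a difference is counted, not on its size. Quantile normalization moved the median of all genes for HT-29 minus MCF10A by -0.11 on the log2 scale. With an 8-fold threshold, 1 member (KLK6) was higher and 0 were lower in HT-29 than in MCF10A, with 2.3% and 1.64% of all genes so counted. With a 2-fold threshold, 3 members (KLK6, KLK10 and KLK11) were higher in HT-29 than in MCF10A, where 10.2% of all genes were, 2 members (KLK5 and KLK7) were lower in HT-29 than in MCF10A, where 10.1% of all genes were, and 4 (KLK5, KLK7, KLK10 and KLK11) were lower in MDA-MB-436 than in MCF10A, where 8.74% of all genes were. A further choice, made after seeing the data, set values under the olfactory receptor 99th percentile to it. With this floor 1 member (KLK6) was higher (2.57% of all genes) and 0 were lower (2.07%) in HT-29 than in MCF10A. Against MDA-MB-436, 2 (KLK6 and KLK10) were higher in HT-29 (2.77%). Between the mammary lines 1 (KLK10) was lower in MDA-MB-436 than in MCF10A (1.33%). The calls of KLK7 and KLK11 were lost because their brighter values were only 2.38-fold and 3.12-fold above this floor. No member difference counted at 4-fold turned sign under these alternatives. Signal over background limits KLK5, KLK7 and KLK11, whose highest values were 193, 142 and 187. No paired analysis was possible because each line has 1 array.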
